A study of Mus musculus with 9 samples.

Results

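The Slc25 genes encode the mitochondrial carrier family, and their transcripts were followed in RNA sequencing libraries of mouse pancreatic islets, the endocrine clusters in which beta cells make insulin. Members were all genes whose symbol is Slc25a followed by a number, each read from its transcript with the most counts, and a gene was kept when it reached 10 counts in 3 libraries. Of 47 such symbols among the 46316 gene symbols of the deposited table, 38 were kept and 9 were not. The 9 below the rule were Slc25a2, Slc25a18, Slc25a21, Slc25a31, Slc25a34, Slc25a41, Slc25a43, Slc25a48 and Slc25a54, with 0 to 12 counts per library. Slc25a21 and Slc25a54 were at 0 counts in all 9 libraries. Of the 38 kept, 36 held at least 10 counts in every library. Slc25a45 had fewer in some libraries, and Slc25a30 held 8, 8 and 9 counts in the db/+ libraries, so that it was kept only through its level in db/db islets.

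The libraries formed 3 groups of 3. The db/+ group came from untreated mice with 1 mutant and 1 normal copy of the leptin receptor gene, and the untreated db/db group from mice in which both copies are mutant, which become obese and diabetic. The treated db/db group received imeglimin and metformin together. No group received 1 drug alone, and no source used here gives strain background, age, dose, duration or the number of mice per library. The receptor mutation is present in every cell of a db/db mouse, and such mice in general differ from db/+ mice in body weight and blood glucose as well. Weight and glucose of these mice were not among the data used. Nothing in the labels states that each library is a different animal. P-values therefore reflect the spread among these libraries alone, which may be technical.

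Carriers of this family are small proteins that sit, with few exceptions, in the inner mitochondrial membrane and exchange nucleotides, phosphate, amino acids, carboxylates, cofactors and metals between the cytosol and the matrix. They are encoded in the nucleus and enter the organelle through the TOM and TIM22 import machinery. In beta cells, where glucose metabolism in mitochondria is tied to insulin release, carriers supply ADP and phosphate to ATP synthase, move reducing equivalents in the malate-aspartate shuttle and export citrate and other intermediates.

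Libraries held 10292668 to 15281813 counts. Levels are given as CPM, counts scaled to library totals with TMM factors, and fold changes as log2 values with standard errors from edgeR's quasi-likelihood F-test. A gene was called at a Benjamini-Hochberg adjusted p under 0.05 over all 16761 genes tested, and all 38 members were tested. Summed levels of the 8 listed beta cell markers were 247200 to 447600 CPM in db/+ libraries, 152800 to 234500 in untreated db/db libraries and 209300 to 233300 in treated ones, the highest sum of any marker list. The 15 listed acinar markers, of the digestive-enzyme cells around islets, summed to 49.34 to 156 CPM, 339.7 to 2397 and 180.2 to 484.3 in the same order, and the 12 lymphocyte markers to 11.11 to 16.43, 42.42 to 440.4 and 7.053 to 10.9. The 7 endothelial markers summed to 515.8 to 582.4, 323.2 to 430.3 and 307.9 to 323.2 CPM, and the 6 ductal markers to 439.3 to 549.3, 799.7 to 1515 and 680.4 to 964.6. Of the 6 ductal markers, Spp1 alone was called between untreated db/db and db/+ islets, with means of 636 and 92.9 CPM. Krt7 was at 324 and 344 CPM. The beta cell sum was made up mostly of Ins1, Ins2 and Iapp, with db/+ means of 118000, 211000 and 13900 CPM. Of the 8 beta cell markers, 6 were called lower in untreated db/db islets, where 32% of all genes were. Ins1 (-1.86 ± 0.34) and Mafa (-4.67 ± 0.45) were among these. Iapp was called higher (1.35 ± 0.24), and Ins2 was not called (-0.64 ± 0.28). The 8 stellate markers, of collagen-making cells, summed to 229.3 to 262, 251.5 to 607.2 and 252.5 to 410.4 CPM, and 5 of them were called higher in untreated db/db islets. Every gene of these 6 lists had counts in some library. The 6 markers of alpha, delta and PP cells, other hormone cells of islets, summed to 19230 to 28680 CPM in db/+ libraries. They summed to 18020 to 24200 in untreated and 9934 to 22320 in treated db/db libraries. Against db/+ islets, 1 of the 6 was called lower in untreated and 3 in treated islets, where 32% and 32.5% of all genes were. None was called between treated and untreated islets, where 0.179% of all genes were. Untreated db/db replicate 1 had the highest acinar and lymphocyte marker sums, and replicate 3 the highest ductal and stellate sums. The part of these shifts in the carrier results was not tested. Without replicate 1, 15 carriers were called higher and 13 lower in untreated db/db islets, where 29.6% and 30.4% of all genes were. Without replicate 3 they were 14 and 13, where 28.9% and 29.0% of all genes were, against 16 and 14 with both. In each case the untreated libraries left still had higher acinar and lymphocyte sums than every db/+ library, so these counts do not decide it. In such bulk samples fewer cells of a type and less RNA per cell cannot be told apart.

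Upstream sequence is shown for 4 carriers whose levels differed strongly between genotypes, 2 that were lower in db/db islets (Slc25a47, Slc25a28) and 2 that were higher (Slc25a30, Slc25a24), so that the letters before their annotated starts can be compared. Each run is the 250 bases before the start, read 5′ to 3′ on the gene's strand, from RefSeq on build GRCm38.p6. Capitals mark CCAAT boxes, the core letters bound by the factor NF-Y, written ATTGG where the match is on the other strand.
Slc25a47: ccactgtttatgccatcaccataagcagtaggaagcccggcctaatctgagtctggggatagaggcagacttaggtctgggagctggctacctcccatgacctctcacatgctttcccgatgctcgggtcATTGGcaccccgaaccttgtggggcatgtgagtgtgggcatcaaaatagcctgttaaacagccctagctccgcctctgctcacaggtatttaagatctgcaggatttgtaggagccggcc
Slc25a28: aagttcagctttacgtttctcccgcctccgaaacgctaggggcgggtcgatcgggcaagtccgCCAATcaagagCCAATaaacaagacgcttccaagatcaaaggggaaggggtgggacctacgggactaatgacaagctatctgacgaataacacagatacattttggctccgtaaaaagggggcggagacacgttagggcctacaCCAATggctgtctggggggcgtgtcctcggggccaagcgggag
Slc25a30: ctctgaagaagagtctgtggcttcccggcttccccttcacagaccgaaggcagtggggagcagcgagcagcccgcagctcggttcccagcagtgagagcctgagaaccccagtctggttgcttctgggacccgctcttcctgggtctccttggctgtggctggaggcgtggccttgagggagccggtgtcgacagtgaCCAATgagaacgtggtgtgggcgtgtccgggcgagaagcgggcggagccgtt
Slc25a24: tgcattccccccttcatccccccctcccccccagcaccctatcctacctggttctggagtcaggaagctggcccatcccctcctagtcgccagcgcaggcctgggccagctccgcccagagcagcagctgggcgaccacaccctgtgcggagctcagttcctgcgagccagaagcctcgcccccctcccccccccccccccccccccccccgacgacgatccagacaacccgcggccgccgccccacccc
The Slc25a47 stretch is chr12:108850879-108851128 on the plus strand and holds 1 box, starting 120 bases before the start. The Slc25a28 stretch is chr19:43674882-43675131 on the minus strand and holds 3, at 187, 176 and 43 bases. The Slc25a30 stretch is chr14:75787038-75787287 on the minus strand and holds 1, at 52 bases, and the Slc25a24 stretch, chr3:109122899-109123148 on the plus strand, holds none. Their GC contents were 54.4%, 55.6%, 64.4% and 72.8%, beside a median of 52.4% over 32851 promoters.

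An upstream entry was at hand for 29 of the 38 carriers. Shares of carriers and of the 12365 tested genes with an entry count a gene when any of its entries matches. Shares of all promoters count each entry. CCAAT on either strand was found in 16 of the 29 (55.2%), beside 33.8% of all 32851 promoters and 39.4% of tested genes. By the calls between untreated db/db and db/+ islets, the 16 were 4 of the 12 carriers with an entry that rose and 8 of the 11 that fell. The other 4 were among the remaining carriers with an entry, which were not called. Shares among all tested genes that rose or that fell were not computed, so this split has no background. Slc25a30, kept only through its level in db/db islets, is among the 4 that rose. The E-box CACGTG was found in 6 carriers (20.7%), beside 6.02% of all promoters and 9.38% of tested genes. The NRF1 site (GCGCA and GCGC with 1 base between) was found in Slc25a3 alone, beside 3.74% of all promoters and 8.39% of tested genes. The cAMP response element TGACGTCA was found in Slc25a25 and Slc25a36, beside 1.55% and 2.9%. Of 7 motifs searched on both strands, 3 were in none of the 29 carriers. These were the PPAR element (AGGTCA repeated with 1 base between), the ERR element TCAAGGTCA and the ATF4 element TGATGNAAT. They were in 0.0335%, 0.387% and 0.816% of all promoters and in 0.0566%, 0.315% and 0.542% of tested genes. The PPAR and ERR elements share the letters AGGTCA. These are matches of letters in a window, with no measurement of binding.

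The first comparison asks how carrier transcripts in untreated db/db islets differ from those in db/+ islets. Of the 38 carriers, 30 were called, where 63.2% of all tested genes were called. Of these, 16 were higher in db/db islets, where 31.3% of all genes were called higher, and 14 were lower, where 32% of all genes were called lower. At 2-fold or more, 6 were higher and 5 lower, where 14.5% and 14.2% of all genes were. These counts include Slc25a30, which had to differ by the rule that kept it; without it, 15 of 37 carriers were called higher, 5 of them at 2-fold or more, and the median below was 0.08. The shares of all genes called higher (31.3%) and lower (32%) also stand beside each count by role that follows. The median log2 fold change over the 38 carriers was 0.16, beside 0.024 over all tested genes. The groups did not overlap for 30 carriers, where 67% of all genes did not overlap. Of these, 16 were higher (33% of all genes), Slc25a30 among them, and 14 lower (34%). Summed over the 38 carriers, the level was 1700 to 1883 CPM in db/+ libraries and 1693 to 1857 CPM in untreated db/db libraries, so the summed ranges overlapped while single carriers moved both ways.

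**Figure D1:**
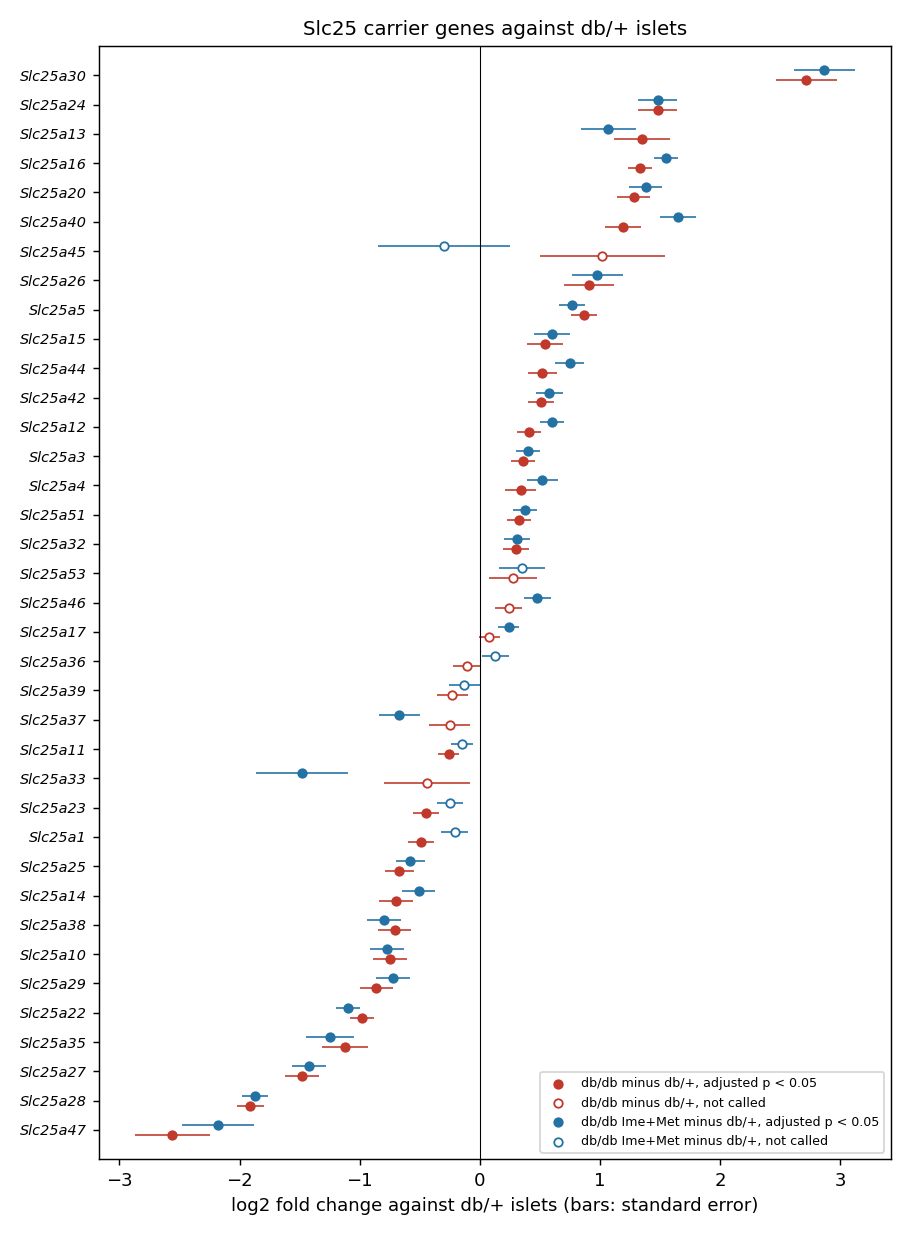
Log2 fold change against db/+ islets (x axis, bars are standard errors) of 37 of the 38 carriers (y axis), for untreated and treated db/db islets, with filled points called at an adjusted p under 0.05. Both comparisons use the same 3 db/+ libraries, and the points run from -2.56 for Slc25a47 to 2.72 for Slc25a30 in untreated db/db islets. Slc25a30 is drawn filled but is given as a description, since it was kept only through its level in db/db islets.

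Among carriers of adenine nucleotides and phosphate, 5 of 8 rose and 2 fell, beside 31.3% and 32% of all genes, and the calcium-regulated ATP-Mg/phosphate carriers moved in opposite directions. Slc25a24, which exchanges ATP-Mg for phosphate under control of calcium, was at 6.83, 6.73 and 10.6 CPM in db/+ libraries, 22.4, 21.3 and 23.9 in untreated db/db libraries and 20.4, 22.7 and 24.4 in treated ones. Every db/db library lay above every db/+ library, and the log2 fold change of untreated db/db over db/+ islets was 1.48 ± 0.16 (SE, n = 3 against 3, edgeR adjusted p = 7.12e-06). Its paralogue Slc25a25 was at 44.1, 36.2 and 35.7 CPM in db/+ libraries, 25.5, 24.5 and 22.9 in untreated and 28.6, 26.1 and 22.9 in treated db/db libraries, and fell by 0.67 ± 0.12 (edgeR adjusted p = 0.000267) without overlap. Slc25a23, the third carrier of this kind, fell by 0.45 ± 0.11, but its transcripts differed, with log2 ratios from -0.46 to 0.50 over the deposited transcripts, so that its direction depends on the transcript taken.

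The carriers that feed ATP synthase were higher in db/db islets. Slc25a5, the ADP/ATP carrier of proliferating and many other cells, was at 94.5, 77.6 and 70.6 CPM in db/+ libraries, 153, 146 and 144 in untreated and 131, 143 and 140.0 in treated db/db libraries, without overlap between genotypes, a log2 fold change of 0.87 ± 0.11 (edgeR adjusted p = 2.03e-05). Slc25a4, the ADP/ATP carrier typical of heart and muscle, was at 158, 112 and 108 CPM, then 152, 172 and 155, then 180.0, 179 and 182. Db/+ replicate 1 lay inside the untreated db/db range, and the log2 fold change of 0.34 ± 0.13 (edgeR adjusted p = 0.0359) was not called without db/+ replicate 2 (0.28, adjusted p = 0.108) or 3 (0.28, 0.0737), without untreated db/db replicate 2 (0.30, 0.106) or 3 (0.37, 0.0553), or with only these groups in the fit (0.36, 0.0561). Slc25a3, the phosphate carrier, had a log2 fold change of 0.36 ± 0.10, and Slc25a42, which imports coenzyme A, of 0.51 ± 0.11, both called. Slc25a17, a peroxisomal carrier of coenzyme A and other cofactors, was not called (0.08 ± 0.09). Slc25a3, Slc25a4 and Slc25a5 belong to families with near-identical processed copies in the genome, so their counts are uncertain.

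Of 6 carriers of glutamate, aspartate, dicarboxylates and citrate, 2 rose and 4 fell, where 31.3% of all genes rose and 32% fell, and the 2 that rose were the aspartate-glutamate carriers of the malate-aspartate shuttle. Slc25a13, or citrin, the form abundant in liver, was at 2.57, 2.14 and 3.38 CPM in db/+ libraries, 6.65, 6.49 and 7.47 in untreated and 5.5, 6.8 and 4.71 in treated db/db libraries. All db/db libraries lay above all db/+ libraries, with a log2 fold change of 1.35 ± 0.23 (edgeR adjusted p = 0.000231) that ranged from 1.35 to 2.46 over its transcripts. Slc25a12, or aralar, the form of brain and muscle, was at 40.7, 37.3 and 31.9 CPM, then 46.3, 50.5 and 49.5, then 55.2, 55.1 and 55.7, without overlap between genotypes and with a log2 fold change of 0.41 ± 0.10. Slc25a22, a glutamate carrier, was at 69.6, 82.7 and 71.8 CPM, then 40.9, 34.8 and 38.2, then 37.9, 34.4 and 32.4, and fell by 0.98 ± 0.10 (edgeR adjusted p = 4.98e-06) without overlap between genotypes. Slc25a10, the dicarboxylate carrier, fell by 0.75 ± 0.14, and Slc25a1, which exports citrate, by 0.49 ± 0.11. Slc25a11, the oxoglutarate carrier that completes the malate-aspartate shuttle, fell by 0.26 ± 0.09 (edgeR adjusted p = 0.0169), a call lost under several alternatives. These were upper-quartile factors (-0.16, adjusted p = 0.114), no filter on low counts (-0.16, 0.265), summed transcripts (-0.17, 0.0748), only these groups in the fit (-0.25, 0.0534), and leaving out replicate 1 of the db/+ group (-0.17, 0.0872) or 3 (-0.21, 0.0583), or replicate 1 (-0.23, 0.0548) or 3 (-0.21, 0.0861) of the untreated db/db group.

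Carriers of acylcarnitine and amino acids differed in direction. Slc25a20, the carnitine-acylcarnitine carrier through which long-chain fatty acids enter for oxidation, was at 12.7, 10.7 and 9.13 CPM in db/+ libraries, 24.4, 29.4 and 25 in untreated and 25, 28.1 and 31.4 in treated db/db libraries. The lowest db/db library was above the highest db/+ library, and the log2 fold change was 1.28 ± 0.14 (edgeR adjusted p = 7.16e-06). Of the 4 amino acid carriers, Slc25a15, the ornithine carrier (0.54 ± 0.15), and Slc25a44, a branched-chain amino acid carrier (0.52 ± 0.12), rose. Slc25a29, a carrier of basic amino acids, fell by 0.86 ± 0.14, and Slc25a38, a glycine carrier needed for heme synthesis, fell by 0.71 ± 0.14, with log2 ratios from -0.71 to -0.40 over its transcripts.

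Of 9 carriers of cofactors, nucleotides and glutathione, 5 rose and 1 fell, where 31.3% and 32% of all genes did. Slc25a16, linked to coenzyme A uptake, was at 12.1, 11.3 and 10.5 CPM in db/+ libraries, 27, 29.8 and 28.7 in untreated and 32.9, 32.7 and 34.1 in treated db/db libraries, a log2 fold change of 1.33 ± 0.10 (edgeR adjusted p = 3.54e-07) between groups that did not overlap. Slc25a40, a glutathione carrier, was at 5.74, 6.93 and 5.76 CPM, then 13.9, 15.6 and 12.7, then 16.7, 19.2 and 21.9, again without overlap, and rose by 1.19 ± 0.15 (edgeR adjusted p = 2.38e-05). Its paralogue Slc25a39, the other glutathione carrier, was at 187, 145 and 137 CPM, then 112, 145 and 142, then 136, 136 and 156, with overlapping groups and no call (-0.23 ± 0.13). Slc25a26, which imports S-adenosylmethionine (0.91 ± 0.21), Slc25a51, the NAD carrier (0.33 ± 0.10), and Slc25a32, which carries folate and FAD (0.30 ± 0.11), were called higher. Over its transcripts the log2 ratio ran from 0.83 to 2.36 for Slc25a26 and from 0.30 to 1.05 for Slc25a32.

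The pyrimidine nucleotide carriers Slc25a33 and Slc25a36 were not called. Slc25a33 was at 3.17, 1.83 and 5.26 CPM, then 2.41, 2.46 and 2.7, then 1.27, 1.57 and 0.839, and Slc25a36 at 97, 96.6 and 86.4, then 78.1, 97.5 and 84.6, then 104, 92.9 and 110.0. Between untreated db/db and db/+ islets both overlapped, and the log2 ratio of Slc25a36 ran from -0.11 to 2.66 over its transcripts. The call of Slc25a51 was lost without untreated db/db replicate 3 (0.29, edgeR adjusted p = 0.0532). That of Slc25a32 was lost without db/+ replicate 2 (0.23, 0.124), without untreated db/db replicate 1 (0.26, 0.0961) and with only these groups in the fit (0.31, 0.0516).

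Of the mitochondrial iron importers, or mitoferrins, Slc25a28 had the lowest adjusted p of all carriers in this comparison. Slc25a28, mitoferrin 2, the broadly expressed form, was at 127, 161 and 166 CPM in db/+ libraries, 37.5, 43 and 40.4 in untreated and 40.2, 43.2 and 41 in treated db/db libraries. The db/db libraries lay below the db/+ range, and the level fell by 1.91 ± 0.11 on the log2 scale (edgeR adjusted p = 7.49e-08), or 3.76-fold. Slc25a37, mitoferrin 1, the form of red cell precursors, was at 19.6, 22.6 and 22.6 CPM, then 21.6, 15 and 18.1, then 15.5, 14.8 and 10.3, and its untreated db/db and db/+ ranges overlapped (-0.25 ± 0.17, not called). The 5 listed erythroid markers summed to 21.97 to 29.97 CPM in db/+, 7.602 to 36.23 in untreated and 6.837 to 27.73 in treated db/db libraries.

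Of the 3 uncoupling-protein-like carriers, Slc25a27 and Slc25a14 fell. Slc25a30, also called KMCP1, was at 0.792, 0.816 and 0.894 CPM in db/+ libraries, 5.77, 5.48 and 5.34 in untreated and 5.01, 5.95 and 7.48 in treated db/db libraries. The log2 fold change was 2.72 ± 0.25, or 6.57-fold, given as a description with no test, since the gene was kept only through its level in db/db islets. Slc25a27, or UCP4, known from neurons, was at 37.6, 49.2 and 41.8 CPM, then 14, 16.6 and 15.3, then 18.4, 16.2 and 13.6, and fell by 1.48 ± 0.14 (edgeR adjusted p = 1.57e-06) without overlap, with log2 ratios from -2.05 to -0.66 over its transcripts (-2.07 to -0.12 for treated db/db islets). Slc25a14, or UCP5, fell by 0.70 ± 0.14. Ucp2, the uncoupling protein expressed in beta cells, which carries another name, rose by 0.67 ± 0.11 (edgeR adjusted p = 0.000224).

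Carriers with no settled substrate included the largest fall. Slc25a47, described as a carrier of liver, was at 3.66, 6.12 and 6.95 CPM in db/+ libraries, 0.95, 1.07 and 0.783 in untreated and 1.2, 1.31 and 1.16 in treated db/db libraries, and fell by 2.56 ± 0.31 (edgeR adjusted p = 1.46e-05), or 5.90-fold. Its counts were 37, 60 and 70 in db/+ libraries against 13, 17 and 11 in untreated db/db libraries, and the groups did not overlap. Slc25a35 was at 8.31, 12.1 and 11.8 CPM, then 4.39, 5.54 and 4.84, then 5.01, 4.32 and 4.19, and fell by 1.12 ± 0.19 (edgeR adjusted p = 0.00027) without overlap. It overlaps Rangrf in the genome, as Slc25a11 overlaps Rnf167, Slc25a25 Naif1, Slc25a26 Lrig1 and Slc25a53 Zcchc18. The strand setting of the counting is not stated, so these 5 carriers are uncertain.

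Slc25a46, an outer-membrane protein of mitochondrial dynamics, was not called (0.24 ± 0.11, edgeR adjusted p = 0.0651), although its groups did not overlap. It was called under DESeq2 (0.27, adjusted p = 0.0359), upper-quartile factors (0.35, 0.00862), DESeq2 size factors in edgeR (0.27, 0.0374), no filter (0.34, 0.0118), summed transcripts (0.28, 0.0423) and without db/+ replicate 1 (0.42, 0.00313). The low Slc25a45 (1.02 ± 0.52) and Slc25a53 (0.28 ± 0.20) were not called, but Slc25a45 was without db/+ replicate 3 (1.66, adjusted p = 0.0324) and also without replicate 2 of untreated db/db (1.35, 0.0364), and Slc25a53 without db/+ replicate 3 (0.55, 0.0303).

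**Figure D2:**
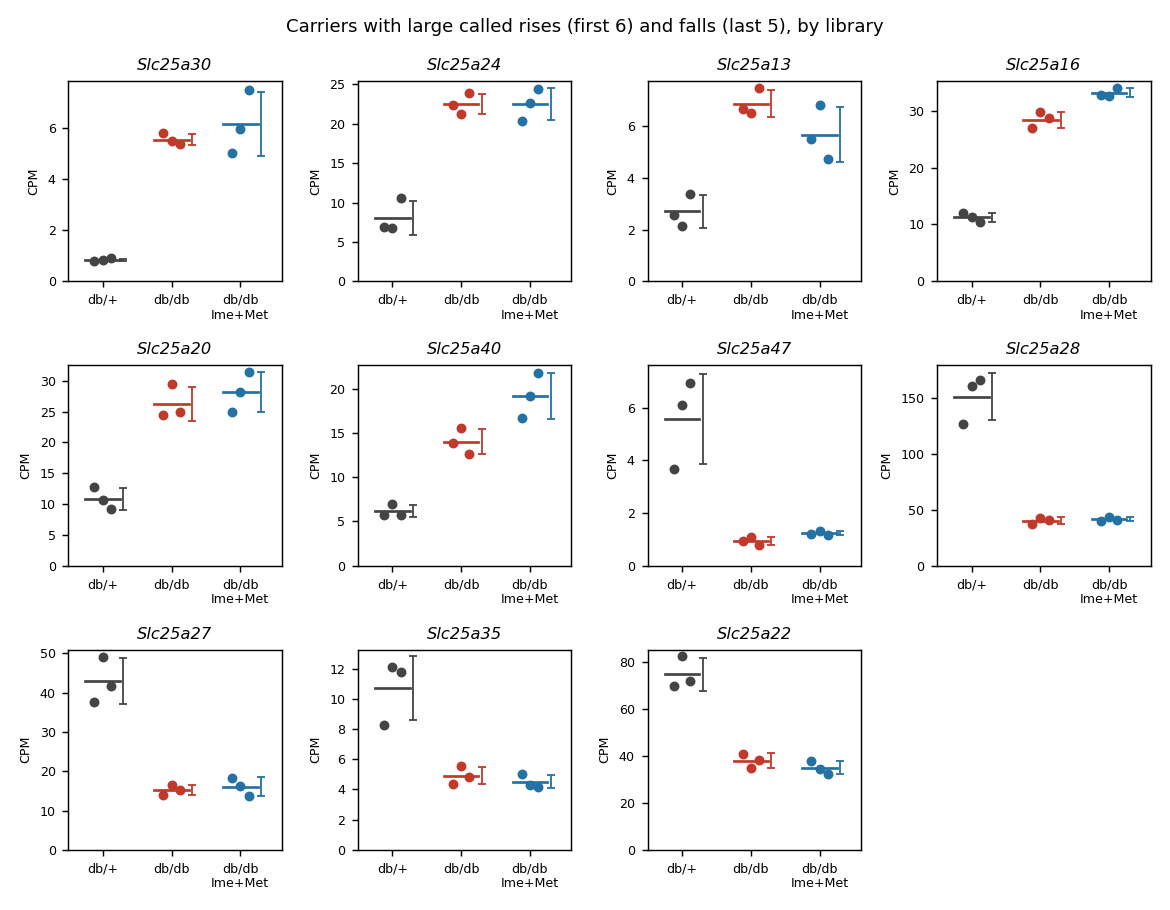
CPM (y axis, linear from 0) of the 6 carriers with the largest called rises and 5 of the 6 with the largest called falls between untreated db/db and db/+ islets, with 1 point per library, a line at the mean and a bar of 1 SD in each of the 3 groups (x axis). Slc25a28 sat at 127 to 166 in db/+ libraries and at 37.5 to 43.2 in all db/db libraries. Slc25a30, among the 6 rises, is shown as a description, since it was kept only through its level in db/db islets.

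The second comparison asks whether carriers differed between treated and untreated db/db islets. None of the 38 carriers was called by edgeR's quasi-likelihood test, where 30 of 16761 genes (0.179%) were called in all, 1 higher (0.00597%) and 29 lower (0.173%). At an unadjusted p under 0.05 there were 8 carriers, where 17.4% of all genes were. DESeq2 and limma voom also called 0 carriers at an adjusted p under 0.05. At that threshold DESeq2 called 0.805% of all genes higher and 2.94% lower, and limma voom 0% and 0.0418%. The median log2 fold change was 0.07 over the carriers and 0.07 over all tested genes.

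The groups did not overlap for 11 carriers, 9 higher and 2 lower in treated islets, where 27.6% of all genes did not overlap, 19% higher and 8.55% lower. Slc25a40, the glutathione carrier, had the largest value among the 9, 0.46 ± 0.14 (edgeR adjusted p = 0.141), with treated libraries from 16.7 to 21.9 CPM above untreated ones from 12.7 to 15.6. The other 8 were Slc25a47 (0.38), Slc25a1 (0.27), Slc25a46 (0.24), Slc25a44 (0.23), Slc25a16 (0.22), Slc25a12 (0.18), Slc25a4 (0.17) and Slc25a17 (0.16). Treated libraries lay below untreated ones for Slc25a33 (-1.04 ± 0.38, edgeR adjusted p = 0.198), where counts were 18, 24 and 13 against 33, 39 and 38, and for Slc25a5 (-0.10 ± 0.11). Slc25a45 (-1.32 ± 0.50) and Slc25a37 (-0.43 ± 0.17) had overlapping groups. Slc25a28 was at 0.04 ± 0.11 and Slc25a30 at 0.15 ± 0.20, and both turned sign under some alternatives. The lymphocyte markers summed to 7.053 to 10.9 CPM in treated and 42.42 to 440.4 in untreated libraries, and their part in these values was not tested.

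**Figure D3:**
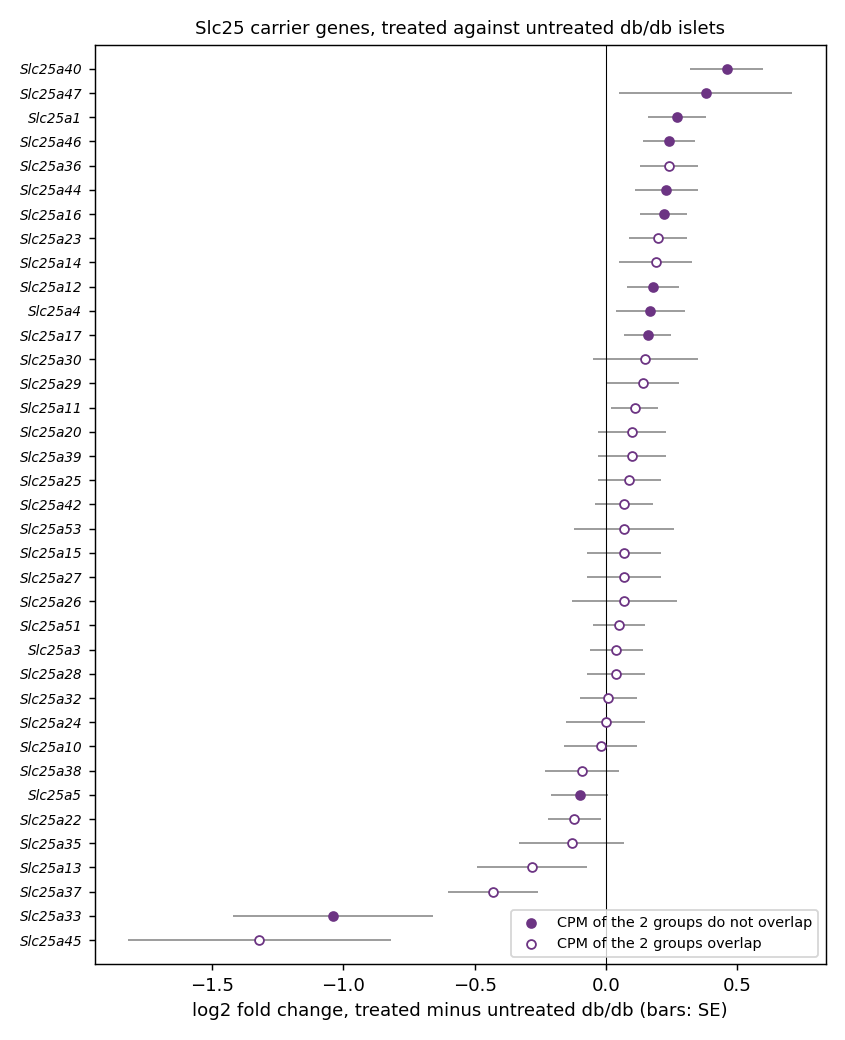
Log2 fold change of 37 of the 38 carriers (y axis) between treated and untreated db/db islets (x axis, bars are standard errors), with filled points for the 11 carriers whose groups did not overlap. No carrier was called, and values ran from -1.32 for Slc25a45 to 0.46 for Slc25a40.

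Against db/+ islets, which are the same 3 control libraries as in the first comparison, treated db/db islets had 31 carriers called, where 65.3% of all genes were called. Of these, 18 were higher, or 17 without Slc25a30, where 32.8% of all genes were, and 13 lower, where 32.5% were. The groups did not overlap for 33 carriers, where 71% of all genes did not overlap. Of these, 18 were higher (35.7% of all genes), Slc25a30 among them, and 15 lower (35.2%). Values in treated islets beside those in untreated islets were 2.87 ± 0.25 and 2.72 for Slc25a30, 1.65 ± 0.15 and 1.19 for Slc25a40, 1.55 ± 0.10 and 1.33 for Slc25a16, -1.87 ± 0.11 and -1.91 for Slc25a28, and -2.18 ± 0.30 and -2.56 for Slc25a47. Slc25a33, which imports pyrimidine nucleotides, fell by 1.48 ± 0.38 (edgeR adjusted p = 0.00409) and Slc25a37, mitoferrin 1, by 0.67 ± 0.17 (0.0037), while Slc25a46 (0.48 ± 0.11) and Slc25a17 (0.24 ± 0.09, 0.0314) rose. These 4 were not called in untreated islets, where the values were -0.44, -0.25, 0.24 and 0.08, and none of the 4 was called between treated and untreated islets.

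Slc25a1 (-0.21 ± 0.11), Slc25a11 (-0.15 ± 0.09) and Slc25a23 (-0.25 ± 0.11) were called lower in untreated but not in treated islets, and their differences between treated and untreated islets, 0.27, 0.11 and 0.20, were not called. Single libraries or settings decided some of these calls. Slc25a17 was not called without db/+ replicate 2 (0.17, edgeR adjusted p = 0.156) or treated replicate 1 (0.22, 0.0826) or 2 (0.24, 0.0735), nor with summed transcripts (0.23, 0.0606) or a replicate block (0.24, 0.0599). Slc25a32 was not called without db/+ replicate 2 (0.17, 0.245) or treated replicate 1 (0.31, 0.0645) or 3 (0.28, 0.0771), nor under DESeq2 (0.30, 0.0566). Slc25a1 was called without db/+ replicate 3 (-0.32, 0.0209), Slc25a53 without db/+ replicate 3 (0.55, 0.0287), and Slc25a23 without db/+ replicate 1 (-0.29, 0.0349) or untreated replicate 2 (-0.24, 0.0438). Slc25a23 was also called with DESeq2 size factors in edgeR (-0.26, 0.0493) and with only these groups in the fit (-0.24, 0.0487).

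Ratios between paralogues within a library do not depend on scaling between libraries, and 6 pairs were compared in 3 comparisons, 18 tests in all. With 3 libraries against 3 the exact two-sided permutation test cannot go below p = 0.1, which is 0.138 after Benjamini-Hochberg adjustment, so no ratio could pass. The log2 ratio of Slc25a5 to Slc25a4 was -0.63 ± 0.10 (SD, n = 3) in db/+, -0.11 ± 0.13 in untreated db/db and -0.39 ± 0.07 in treated db/db libraries, and no pair of groups overlapped. Treated libraries (-0.46, -0.32 and -0.38) thus lay between db/+ libraries (-0.74, -0.53 and -0.61) and untreated ones (0.01, -0.24 and -0.11). The ratio of Slc25a13 to Slc25a12 was -3.76 ± 0.47, -2.82 ± 0.12 and -3.30 ± 0.27 in the same order, and treated libraries overlapped db/+ libraries but not untreated ones.

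Larger shifts with genotype were seen in 3 other pairs. Slc25a25 to Slc25a24 was 2.28 ± 0.48 (SD, n = 3) in db/+ and 0.11 ± 0.15 and 0.20 ± 0.29 in untreated and treated db/db libraries, that is from 5.04 times as many counts to 1.08 and 1.16 times. Slc25a28 to Slc25a37, the mitoferrins, was 2.80 ± 0.09, 1.16 ± 0.36 and 1.63 ± 0.32. Slc25a40 to Slc25a39, the glutathione carriers, was -4.65 ± 0.33, -3.23 ± 0.24 and -2.89 ± 0.11. In each of these pairs both db/db groups lay apart from the db/+ group and overlapped each other. Slc25a33 to Slc25a36 was -4.87 ± 0.83, -5.08 ± 0.19 and -6.38 ± 0.56, with treated libraries below both other groups, which overlapped.

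**Figure D4:**
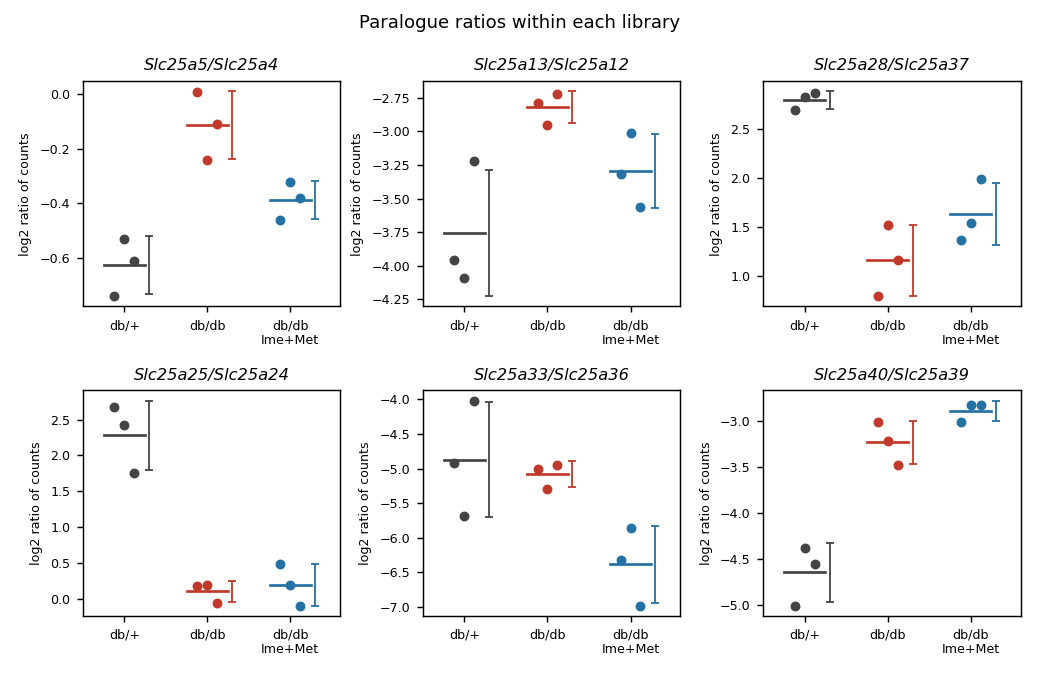
Log2 ratio of counts of 6 paralogue pairs (y axis) in each library, by group (x axis), with lines at the mean and bars of 1 SD. Slc25a25 to Slc25a24 ran from 1.75 to 2.68 in db/+ libraries and from -0.09 to 0.49 in all db/db libraries.

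Compared per length, as CPM per kilobase of the chosen transcript, Slc25a3, the phosphate carrier, had the highest level in every group, 190.5 ± 16.27 (SD, n = 3) in db/+, 243.7 ± 10.24 in untreated and 251 ± 8.433 in treated db/db libraries. In db/+ islets Slc25a28 (108.2 ± 15.09), Slc25a4 (94.48 ± 20.69) and Slc25a39 (93.36 ± 15.94) followed, neighbours that do not differ beyond their spread, and then Slc25a5 (62.47 ± 9.498) and Slc25a1 (58.96 ± 5.663), which do not either. In untreated db/db islets the order after Slc25a3 was Slc25a4 (120.0 ± 8.132) and Slc25a5 (114.1 ± 3.794), within their spread, then Slc25a39 (79.36 ± 10.80), Slc25a1 (42.07 ± 5.948) and Slc25a28 (28.79 ± 1.957), and the order in treated islets was the same. Slc25a28 thus stood at rank 2 in db/+ islets and rank 6 in both db/db groups, and Slc25a5 at rank 5 and rank 3. The 5 carriers with the most counts made up 43.8% to 46% of the carriers' summed CPM in db/+ libraries, 50.4% to 50.9% in untreated and 49.2% to 49.5% in treated db/db libraries.

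**Figure D5:**
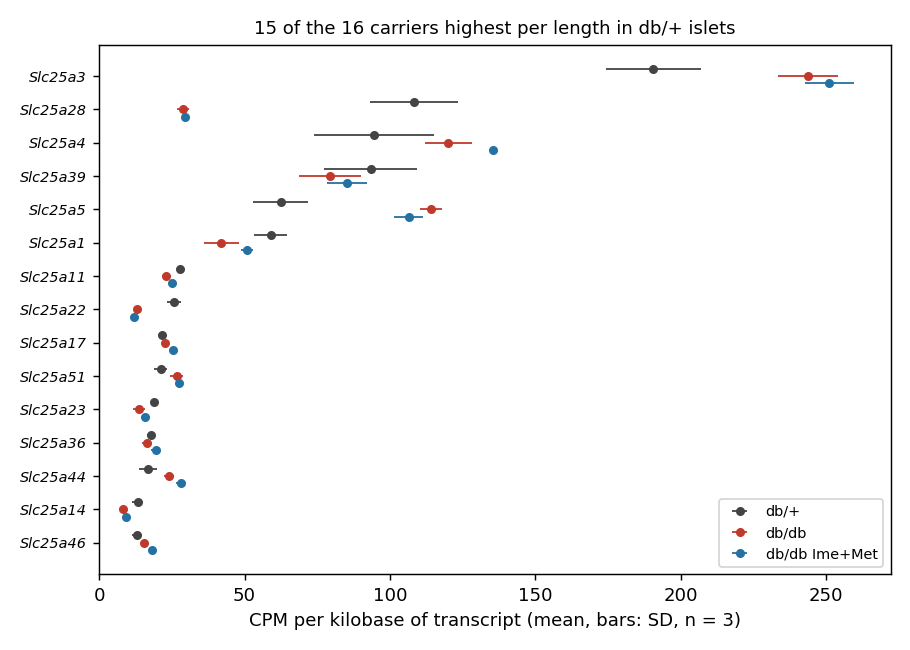
CPM per kilobase of transcript (x axis, mean with SD, n = 3) of 15 of the 16 carriers with the highest level in db/+ islets (y axis), for the 3 groups. Slc25a28 fell from 108.2 in db/+ to 28.79 and 29.6 in untreated and treated db/db islets.

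Genes that act with the carriers were read from lists, by the same test. Of 16 genes of the import machinery, 4 rose and 8 fell from db/+ to untreated db/db islets, where 31.3% of all genes rose and 32% fell, with a median log2 fold change of -0.32 beside 0.024 over all genes. Timm13 (-1.57 ± 0.10), Timm10b (-0.73 ± 0.13) and Timm8b (-0.73 ± 0.14), small chaperones of the intermembrane space that escort carriers, fell. The receptors Tomm20 (0.60 ± 0.10) and Tomm70a (0.51 ± 0.10), the latter the main docking site of carrier precursors, rose. Neither kind moved as 1. Of the small chaperones, Timm9 also fell (-0.61 ± 0.15), but Timm10 rose (0.43 ± 0.16) and Timm8a1 was not called (0.11 ± 0.23). The receptor Tomm22 fell (-0.27 ± 0.11). Of 7 enzymes of the malate-aspartate and glycerol phosphate shuttles, 3 were higher and 0 lower, among them the cytosolic Mdh1 (0.88 ± 0.15) and Got1 (0.80 ± 0.10), which work with Slc25a12 and Slc25a13. Of 12 enzymes of citrate and pyruvate cycling, 5 were higher and 2 lower, where 31.3% and 32% of all genes were. The malic enzymes Me3 (1.9 ± 0.22) and Me2 (0.90 ± 0.09) rose, and pyruvate carboxylase, Pcx (-1.87 ± 0.11), and mitochondrial phosphoenolpyruvate carboxykinase, Pck2 (-0.67 ± 0.12), fell.

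Of 7 tested genes of glutamate and ornithine metabolism, 3 were higher and 0 lower, where 31.3% of all genes were higher and 32% lower, as beside each list below. They were led by Oat, ornithine aminotransferase (2.09 ± 0.14), and Odc1, ornithine decarboxylase (0.52 ± 0.16). Of 6 genes of the carnitine system, 1 was higher and 3 lower. Cpt1a, the liver-type enzyme that makes the acylcarnitines moved by Slc25a20, rose (1.79 ± 0.10), and the muscle and brain forms Cpt1b (-1.94 ± 0.23) and Cpt1c (-1.41 ± 0.22) fell. Of 9 tested genes of mitochondrial iron, heme and iron-sulfur clusters, 2 were higher, among them Alas1 (0.24 ± 0.10), the first enzyme of heme synthesis. In the same list 2 were lower, among them Abcb10 (-0.44 ± 0.10), a transporter that binds mitoferrin 1. Of 13 pores and other carriers, 1 was higher, the outer-membrane channel Vdac2 (0.51 ± 0.09), and 5 lower, led by the sideroflexins Sfxn4 (-1.63 ± 0.24) and Sfxn2 (-0.50 ± 0.11). The channels Vdac1 (-0.33 ± 0.10) and Vdac3 (-0.44 ± 0.09), related to Vdac2, were among the 5. Of 3 tested family members under other names, Ucp2 rose, Mtch1 fell by 0.60 ± 0.13 and Mtch2 was not called (-0.04 ± 0.10). None of these lists held a gene called between treated and untreated db/db islets, where 0.179% of all genes were called.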

How the data were processed

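RNA of mouse pancreatic islets was purified on columns and made into libraries with a strand-preserving kit, per the labels' protocols. The submitters' processing notes name build GRCm39 and the tools HISAT2 2.2.1, cutadapt 1.9.1 and featureCounts 2.0.0. No source used here gives the strand setting or the handling of multiply aligned reads. The authors deposited raw counts per transcript, per the file headers, for 139023 transcripts, together with transcript lengths in bases.

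Each gene was represented by its transcript with the highest total. Of the 38 carriers, 29 had several transcripts, with a median ratio of lowest to highest total of 0.927; it was under 0.5 in 5 (Slc25a13, Slc25a23, Slc25a26, Slc25a27 and Slc25a36). Genes were filtered with filterByExpr by group and fitted over all 9 libraries with edgeR 4.0.16 (TMM, robust quasi-likelihood, 3 group means) in R 4.3.3, with limma 3.58.1 and DESeq2 1.42.0 as alternatives, and tested on simulated data. Tabulation used pandas 2.3.3, and plots matplotlib 3.10.9, under Python 3.11.15. Paralogue ratios are log2 of counts plus 0.5. No pair of libraries of a group agreed within counting noise (chi-square per degree of freedom 10.8 to 53.1).

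Values per library are given for the 6 called carriers with the largest fold change per direction and comparison and for the paralogue pairs; the pair Slc25a22 and Slc25a18 was not tested, since Slc25a18 was below the rule. Of the pathway lists, the 2 called genes with the largest fold change per direction are named, with some further genes of the same kind. Values of 1 carrier and of 2 listed genes, which are included in the counts, are not reported here. Members and lists were chosen with earlier results of these data known. Motifs and upstream stretches come from RefSeq on GRCm38.p6, which is not the build of the counts and was used only for sequence, position and overlapping genes.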

Additional observations from a re-analysis of the deposited data

How the results depend on the processing

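Counts of called carriers stayed within 1.5 times under every alternative run. Leaving out each library in turn gave 14 to 17 higher and 13 to 14 lower for untreated db/db against db/+ islets. There 27.5% to 33.7% of all genes were higher and 28.1% to 31.4% lower. For treated db/db against db/+ it gave 16 to 19 and 13 to 14, beside 32.8% and 32.5% of all genes with every library in. Between treated and untreated it gave 0, beside 0.179%. The other settings gave 14 to 17, 13 to 14, 17 to 18, 13 to 14 and 0. For untreated db/db against db/+ islets the shares of all genes were then 20.5% to 35.7% higher and 16.1% to 32% lower, lowest with no filter. Of the carriers called, 26 of 30 and 29 of 31 were called under every alternative, a share that was not computed for all genes. These counts of carriers include Slc25a30, which was kept only through its level in db/db islets. Upper-quartile factors and no filter moved the median of all genes by 0.106 and 0.107 (log2) between untreated db/db and db/+ islets.

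No label states that the replicate numbers pair the libraries. Deviations of same-numbered libraries correlated from -0.427 to 0.0585, and those of differently numbered ones from -0.304 to 0.437. With 3 libraries a group these values cannot decide whether the numbers pair them. With a replicate block, untreated db/db islets had 16 carriers higher and 14 lower than db/+ islets, where 29.5% and 30.4% of all genes were. Treated ones had 17 and 13, where 31.2% and 31.1% of all genes were. Between treated and untreated islets 0 were called, where 0.00597% of all genes were higher and 0.686% lower.

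Directions turned for uncalled values. Leaving out each library in turn, Slc25a33 between untreated db/db and db/+ islets ran from -0.73 to 0.05 (the latter without db/+ replicate 3) and Slc25a36 from -0.19 to 0.01 (without db/+ replicate 1). Slc25a36 was also 0.00 with upper-quartile factors and 0.20 with summed transcripts. Between treated db/db and db/+ islets, Slc25a39 ran from -0.25 to 0.03 (without db/+ replicate 1) and Slc25a45 from -0.77 to 0.26 (without db/+ replicate 3), and Slc25a36 was called with summed transcripts (0.36, edgeR adjusted p = 0.00583). Between treated and untreated db/db islets, Slc25a28 ran from -0.03 to 0.09 and Slc25a30 from -0.01 (without treated replicate 3) to 0.28. Slc25a28 was also -0.02 with upper-quartile factors, -0.03 with no filter or only these groups in the fit, and -0.04 with summed transcripts. The log2 ratio of Slc25a33 to Slc25a36, untreated db/db minus db/+, ran from -0.61 to 0.22 (without db/+ replicate 3), and that of Slc25a25 to Slc25a24, treated minus untreated, from -0.05 (without treated replicate 1) to 0.24. Of 21 carriers without printed alternatives between treated and untreated islets, 12 turned sign somewhere, with a lowest adjusted p of 0.121. Apart from summed transcripts and left-out libraries, the cause was not tested. With 3 libraries a group, carriers at few counts (Slc25a30, Slc25a33, Slc25a45, Slc25a47) have the widest errors.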
